A study of Sus scrofa with 30 samples.

Results

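The genes described here are 10 enzymes and receptors of lysophospholipid signaling in pig embryos: the ectoenzymes ENPP1, ENPP2 and ENPP3, the lipase LIPH, the sphingosine kinase SPHK1, the lysophosphatidic acid (LPA) receptors LPAR1, LPAR2, LPAR3 and LPAR6, and the sphingosine 1-phosphate (S1P) receptor S1PR1. They were chosen by name, with earlier results of these data known. All 10 symbols were found among the 13103 genes of the table of all embryos. RNA of 30 single embryos was sequenced, taken 8, 10 or 12 days after insemination (5 females and 5 males per day). These are the days on which spherical pig embryos become ovoid and then elongate into filaments, and the study asked how gene expression changes over this time and between the sexes. The gilts were German Landrace × Pietrain crosses inseminated with semen of 1 Pietrain boar, so all embryos shared a sire. All gilts had been cycle-synchronized with altrenogest and then given the gonadotropins PMSG and hCG before insemination. The embryos themselves received no treatment, and each library held a whole embryo with its disc and trophectoderm. There were 4 gilts per day and embryos of the same gilt were included, but the gilt of an embryo is not given. Littermates are therefore treated as independent samples, and p-values measure the spread between these embryos.

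LPA and S1P are small signaling lipids that act outside the cell on G protein-coupled receptors and change cell migration, adhesion, shape and survival. LPA is made from lysophosphatidylcholine by autotaxin, the product of ENPP2, or from phosphatidic acid by LIPH, while S1P is made inside the cell by sphingosine kinases and exported. In mice, LPAR3 of the uterus is known for its part in the spacing and attachment of embryos.

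Levels are given as CPM, read counts relative to the library size after TMM scaling, and are compared between days and not between genes, since no transcript lengths were used. The totals ran from 6068212 to 34002508 counts per embryo, and 3 counts, taken as the floor of detection, corresponded to between 0.0823 and 0.434 CPM. Such floors cover counting error alone. A gene was called a differentially expressed gene (DEG) between days at a false discovery rate (FDR, the p-value of the edgeR quasi-likelihood F test adjusted over all 13103 genes by Benjamini-Hochberg) under 0.001 with a log2 fold change beyond 1. All 5 trophectoderm markers (CDX2, GATA3, TFAP2C, KRT8 and KRT18) were present in every embryo, with a median sum of 23227, 41970 and 12597 CPM on Days 8, 10 and 12. Nearly all of it was KRT8 and KRT18. From Day 10 to Day 12, the mean of GATA3 went from 121.3 to 285 CPM, that of CDX2 from 214 to 79.9 CPM and that of TFAP2C from 90.9 to 91.0 CPM. The summed level of 3 epiblast markers (POU5F1, NANOG and SOX2) had a median of 35.8 CPM on Day 8, 16.6 CPM on Day 10 and 1.56 CPM on Day 12, when NANOG and SOX2 averaged 0.0480 and 0.00678 CPM, and that of 4 hypoblast markers (GATA4, GATA6, SOX17 and FOXA2) had a median of 208, 105.4 and 164 CPM. Of markers for other cells, 2 of 4 for uterine epithelium (ACP5 and ESR1) were in the table, with a median sum of 0.612, 0.752 and 5.87 CPM on Days 8, 10 and 12, 1 of 3 for red cells (HBB, median 0, 0 and 0.945 CPM) and 0 of 3 for leukocytes. The part of these cell types in the changes between days was not tested, and fewer cells of a type cannot be told apart from less RNA per cell in whole embryos.

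The genes lie on 7 chromosomes of Sscrofa11.1. ENPP1 (NCBI gene 100037271, chr1:31724290-31796594) and ENPP3 (NCBI gene 100621671, chr1:31859180-31932617) are neighbors, and LPAR1 (NCBI gene 100512581, chr1:251811583-251979828) lies far from them on the same chromosome. ENPP2 (NCBI gene 503658, chr4:19319815-19433492) and S1PR1 (NCBI gene 100621202, chr4:117064632-117069724) share chromosome 4. The others are LPAR2 (NCBI gene 100038015, chr2:58296381-58300869), LPAR3 (NCBI gene 100113360, chr6:128860210-128937769), LPAR6 (NCBI gene 100738399, chr11:19216305-19220913), SPHK1 (NCBI gene 100519210, chr12:5114946-5122580) and LIPH (NCBI gene 100737989, chr13:123372909-123419505). These are the spans of whole genes, with exons and introns. The span of LPAR6 lies within that of RB1, and the spans of S1PR1 and ENPP3 overlap LOC110260372 and LOC102160401, neither of which was in the table.

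From Day 8 to Day 10, SPHK1 and LPAR3 rose and LIPH was nearly lost. These 3 of the 10 genes were DEG. The 2 rises stood against 9.88% of all genes called higher and the 1 fall against 4.20% called lower. The median log2 fold change of the 10 genes was 0.52, and that of all genes was 0.03. From Day 10 to Day 12, ENPP1 and LPAR6 rose, and ENPP3, LPAR3 and SPHK1 fell, which made 5 DEG. Of all genes, 14.9% were called higher and 8.39% lower in this interval, and the median log2 fold change was -0.20 for the 10 genes and 0.04 for all genes. Between Days 8 and 12, LPAR6, S1PR1 and SPHK1 were higher and ENPP3 and LIPH lower on Day 12, with 22.0% of all genes called higher and 10.4% lower. Here the 10 genes had a median of 0.51 against 0.09 for all genes. The 3 comparisons share embryos and are not independent of each other.

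**Figure D1:**
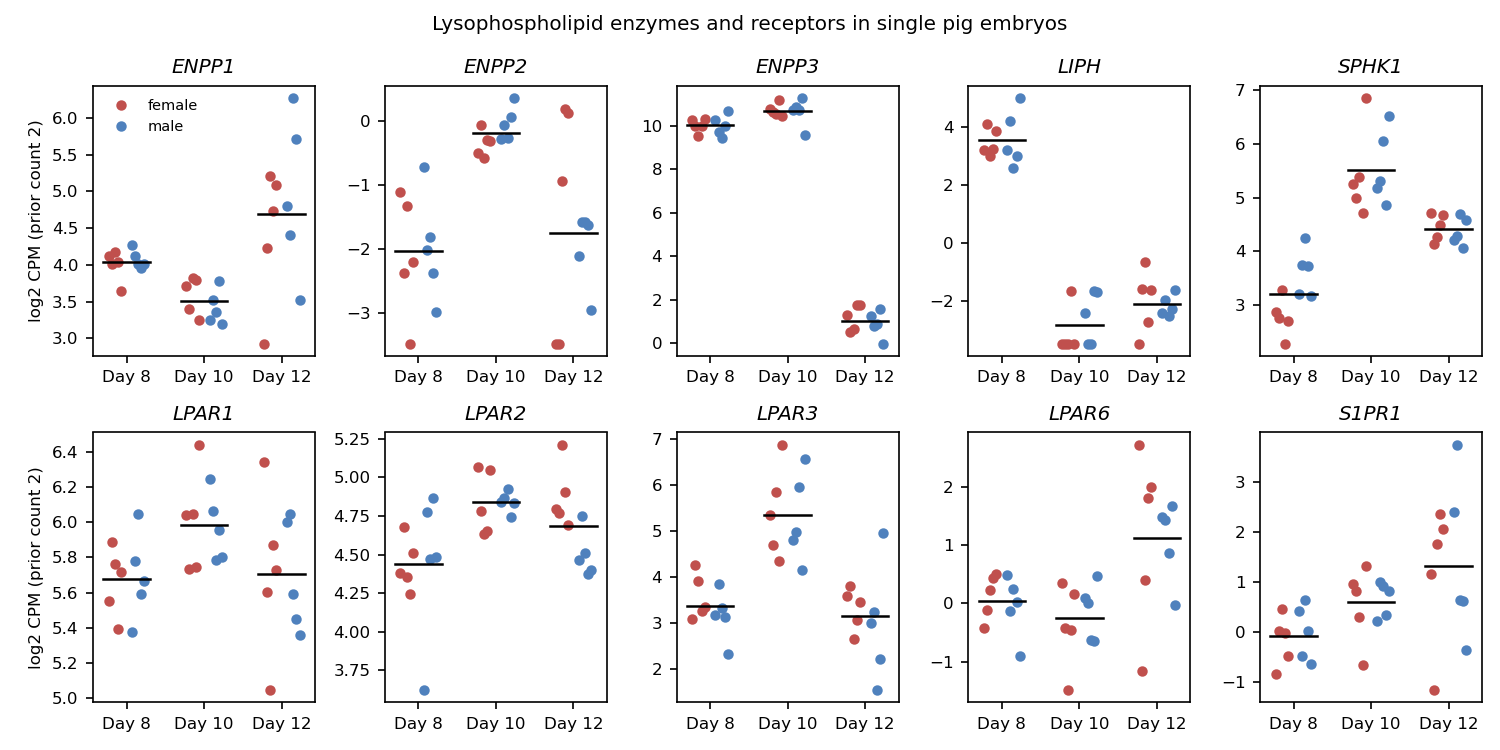
Level of each gene in each embryo, as log2 CPM with a prior count of 2 (vertical axis, scaled separately for each gene), on Days 8, 10 and 12. Points are embryos, red for female and blue for male, and bars are means of the 10 embryos of a day; ENPP3 dropped on Day 12 and LIPH on Day 10, while LPAR3 and SPHK1 were highest on Day 10.

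The enzyme with the largest change was ENPP3, an ectoenzyme known as CD203c that cleaves extracellular nucleotides and belongs to the same family as autotaxin. Its level ran from 694 to 1624 CPM on Day 8 with a median of 1021 CPM, from 765 to 2450 CPM on Day 10 with a median of 1675 CPM, and from 0.890 to 3.30 CPM on Day 12 with a median of 2.02 CPM. Days 8 and 10 overlapped, and every Day 12 embryo lay far below every earlier embryo. The mean fell from 1691 ± 473 CPM (SD, n = 10) on Day 10 to 2.11 ± 0.833 CPM on Day 12, 802-fold (adjusted p = 7.07e-23, log2 fold change -9.64 with an SE of 0.28). The rise from Day 8 to Day 10 was 1.58-fold and was not called (log2 fold change 0.66, adjusted p = 0.00392). ENPP3 still had counts above the floor, which covers counting error alone, in all 10 Day 12 embryos, with 16 counts or more each.

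ENPP1, the neighboring gene, encodes an ectoenzyme that releases pyrophosphate from extracellular ATP. It moved the other way on Day 12. The 10 embryos ran from 12.4 to 19.1 CPM on Day 8 (median 16.2 CPM), from 9.07 to 14.0 CPM on Day 10 (median 10.9 CPM) and from 7.52 to 77.0 CPM on Day 12 (median 27.2 CPM). Day 12 embryos were thus spread over the whole range of the earlier days and beyond, with the lowest level in d12_f_245 and the highest in d12_m_276. The mean rose from 11.4 ± 2.0 to 31.4 ± 20.7 CPM between Days 10 and 12 (adjusted p = 7.81e-06, log2 fold change 1.46 with an SE of 0.25). Against Day 8, the Day 12 level was 0.94 higher on the log2 scale (adjusted p = 0.00108), short of both thresholds, and the gene was called when any of d12_f_245, d12_f_271 and d12_m_307 was left out (log2 fold changes of 1.05, 1.0 and 1.04).

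ENPP2, which encodes autotaxin, the main source of LPA in blood, was scarce on all days. On Day 8 it ran from 0 to 0.521 CPM with a median of 0.143 CPM, and 6 of 10 embryos were at or under 3 counts. All 10 embryos of Day 10 were above the floor, from 0.579 to 1.19 CPM with a median of 0.737 CPM, and above every Day 8 embryo. On Day 12 the range was 0 to 1.05 CPM with a median of 0.239 CPM, and 4 embryos were at or under the floor. The mean on Day 10 was at least 3.44-fold that on Day 8, with the embryos under 3 counts set to 3 counts. This difference missed the threshold of 0.001 in the quasi-likelihood test (log2 fold change 1.96, adjusted p = 0.00158) and passed it with DESeq2 (adjusted p = 0.000315) and with the robust GLM of edgeR (adjusted p = 3.03e-07). It also passed when d08_m_103, d12_f_271 or d12_f_297 was left out. The fall to Day 12 was not called (log2 fold change -1.17, adjusted p = 0.0385), but was with the robust GLM (log2 fold change -1.75, adjusted p = 3.17e-05).

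LIPH encodes a membrane-bound phospholipase that makes LPA from phosphatidic acid and is known for supplying ligand to LPAR6 in hair follicles. Its transcripts were found on Day 8 in every embryo, from 6.01 to 32.1 CPM with a median of 9.40 CPM. On Day 10 the highest level was 0.228 CPM, 7 of 10 embryos had 3 counts or fewer and 6 of these had none. Day 12 embryos ran from 0 to 0.538 CPM, with 4 at or under 3 counts. The lowest Day 8 embryo lay above the highest embryo of either later day. With levels under the floor set to 3 counts, the Day 8 mean of 13.2 ± 7.84 CPM was at least 78.6-fold that of Day 10 and at least 57.0-fold that of Day 12 (adjusted p = 1.23e-12 and 1.39e-12). The difference between Days 10 and 12 did not pass (adjusted p = 0.131).

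SPHK1 encodes the kinase that makes S1P from sphingosine. On Day 8 it ran from 4.75 to 18.9 CPM with a median of 8.96 CPM, and on Day 10 from 26.1 to 116 CPM with a median of 38.9 CPM. These 2 days did not overlap. On Day 12 the embryos were close together, between 16.6 and 26.2 CPM with a median of 20.9 CPM, and they overlapped with both earlier days. The mean rose 5.27-fold from 9.79 ± 4.24 to 51.6 ± 30.1 CPM up to Day 10 (adjusted p = 3.94e-09, log2 fold change 2.40 with an SE of 0.26) and fell to 21.5 ± 3.66 CPM on Day 12 (adjusted p = 4.90e-05, log2 fold change -1.27 with an SE of 0.25). The fall was called in each of the 30 fits without 1 embryo, at -1.34 to -1.05 on the log2 scale. Without both d10_f_454 and d10_m_453, which had the highest levels on Day 10, it was -0.85 (adjusted p = 0.000553), and with the robust GLM it was -0.94 (adjusted p = 1.51e-06), both under the FDR threshold but short of the fold limit. SPHK1 remained above its Day 8 level on Day 12 (log2 fold change 1.13, adjusted p = 0.000158). With embryos of 1 sex, this difference was 1.59 in females (adjusted p = 0.000782) and 0.72 in males (adjusted p = 0.0424), where it was not called.

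**Figure D2:**
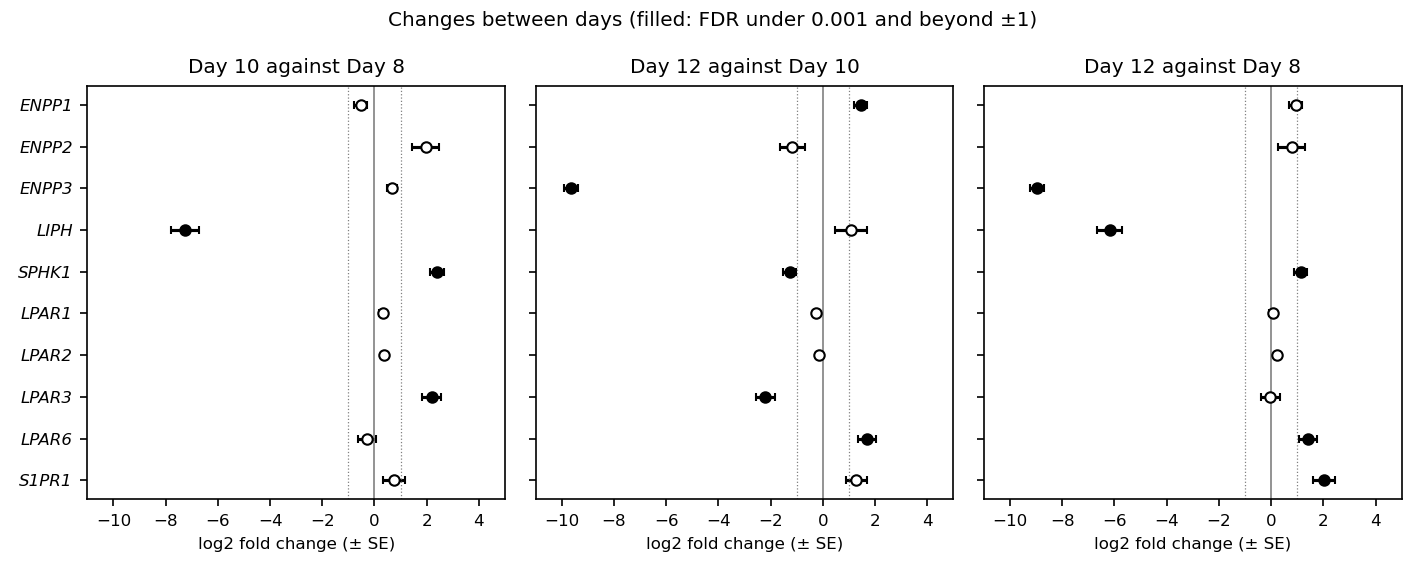
Log2 fold change of each gene between days (horizontal axis, with its SE as bars), in 3 panels for Day 10 against Day 8, Day 12 against Day 10 and Day 12 against Day 8. Filled points are DEG and dotted lines mark a log2 fold change of 1 in either direction; LIPH and ENPP3 lie far to the left, and LPAR1 and LPAR2 stay within 0.38 of 0 in all panels.

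Among the receptors, LPAR3 changed in the same direction as SPHK1. LPAR3 belongs, with LPAR1 and LPAR2, to the EDG group of LPA receptors. Day 8 embryos ran from 4.94 to 19.0 CPM (median 9.73 CPM), Day 10 embryos from 17.6 to 117 CPM (median 36.0 CPM) and Day 12 embryos from 2.83 to 31.0 CPM (median 8.80 CPM). Of the Day 10 embryos, 6 lay above every embryo of the other days, and the lower end overlapped with Days 8 and 12. The mean rose 4.55-fold from 10.9 ± 4.04 to 49.4 ± 33.4 CPM (adjusted p = 7.66e-06, log2 fold change 2.18 with an SE of 0.36) and fell 4.62-fold to 10.7 ± 7.86 CPM (adjusted p = 4.39e-06, log2 fold change -2.21 with an SE of 0.36). In 5 embryos of 1 sex per day, the rise was 2.07 in females (adjusted p = 0.00121) and 2.32 in males (adjusted p = 0.00543), and neither passed 0.001. The difference between Days 8 and 12 did not pass (adjusted p = 0.947, log2 fold change -0.03 with an SE of 0.35).

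LPAR1, the most widely expressed LPA receptor in mammals, had 51.6 ± 7.58, 64.1 ± 10.8 and 53.7 ± 14.1 CPM on Days 8, 10 and 12, and LPAR2 had 22.1 ± 4.72, 28.7 ± 2.95 and 26.0 ± 4.95 CPM. All days overlapped for both genes, and neither was a DEG in any comparison. The largest log2 differences were 0.31 for LPAR1 (SE 0.12, adjusted p = 0.0323) and 0.38 for LPAR2 (SE 0.12, adjusted p = 0.00716), both between Days 8 and 10.

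LPAR6, an LPA receptor of the P2Y-related group, was low and rose on Day 12. Its range was 0.446 to 1.34 CPM on Day 8, 0.267 to 1.30 CPM on Day 10 and 0.360 to 6.51 CPM on Day 12, with medians of 1.0, 0.784 and 2.66 CPM. Day 12 was uneven. The embryo d12_f_271 lay below every Day 8 embryo, and d12_m_307 and d12_f_289 lay within the range of Day 8, while d12_f_245, the smallest library, had the highest level, from 45 counts. The mean rose from 0.807 ± 0.325 to 2.64 ± 1.78 CPM between Days 10 and 12 (adjusted p = 9.56e-05, log2 fold change 1.68 with an SE of 0.34). The difference from Day 8 (log2 fold change 1.41, adjusted p = 0.000465) missed 0.001 when any of d08_f_105, d08_m_136, d12_f_245, d12_f_297 and d12_f_299 was left out (adjusted p from 0.00105 to 0.00147), and when Days 8 and 12 alone were fitted (adjusted p = 0.00175). LPAR6 lies within the RB1 gene, and the strand setting of the counting is not given, so reads of the 2 genes may not be fully separated. RB1 had 1.53 ± 0.510, 2.68 ± 1.29 and 4.87 ± 1.42 CPM on the 3 days, and was called higher on Day 12 than on Day 8 (log2 fold change 1.67, adjusted p = 7.90e-07).

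S1PR1, the S1P receptor known from blood vessels and from the exit of lymphocytes from lymph nodes, increased in steps that each fell short of a call. Its level ran from 0.469 to 1.49 CPM on Day 8 (median 0.913 CPM), from 0.545 to 2.42 CPM on Day 10 (median 1.70 CPM) and from 0.360 to 13.4 CPM on Day 12 (median 2.75 CPM). The days overlapped, and d12_m_275 lay far above the other embryos. The log2 fold change was 0.75 from Day 8 to Day 10 (adjusted p = 0.127), 1.29 from Day 10 to Day 12 (adjusted p = 0.00752) and 2.04 from Day 8 to Day 12 (SE 0.42, adjusted p = 7.77e-05), which was a DEG. Without d12_m_275 the last was 1.54 (adjusted p = 0.000382) and the step from Day 10 to Day 12 was 0.79 (adjusted p = 0.0546).

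The embryo d12_m_275, with the highest S1PR1 level, had the lowest trophectoderm marker sum of Day 12 (8272 CPM) and a hypoblast marker sum of 272 CPM, exceeded only by that of d12_f_245 (314 CPM). Across the 10 Day 12 embryos the Pearson correlation of S1PR1 with the hypoblast sum was 0.72 and Spearman's rho 0.67 (permutation test with 100000 resamples, two-sided, p = 0.0188 and 0.0394, adjusted p = 0.117 for the former). With the trophectoderm sum it was -0.79 (rho -0.67, permutation p = 0.00626 and 0.0387, adjusted p = 0.101). When the 2 embryos farthest from the median of the marker sum were left out, r became 0.90 and -0.45. LPAR6 and LPAR1 also had positive coefficients with the hypoblast sum (r = 0.70 and 0.77, rho = 0.60 and 0.76, permutation p = 0.0235 and 0.00893, adjusted p = 0.117 and 0.101, r = 0.65 and 0.73 without the 2 farthest embryos). Negative coefficients as strong were found for ENPP2, near the floor, with the trophectoderm sum and for ENPP1 with the epiblast sum (r = -0.77 and -0.71, rho = -0.73 and -0.62, permutation p = 0.0101 and 0.0228 for r, adjusted p = 0.101 and 0.117, r = -0.86 and -0.42 without the 2 farthest embryos). None of the 30 relations of the 10 genes with 3 marker sums passed an adjusted p of 0.05. They were computed after the levels were seen.

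The Day 10 embryos differed widely in LPAR3 and SPHK1, and their order was related to the overall stage of the transcriptome. A progress score placed each embryo on the line from the mean Day 8 profile (score 0) to the mean Day 12 profile (score 1), over the 13093 genes other than the 10 described here. Day 10 embryos had scores from 0.263 to 0.541, and d10_f_454 (0.514) and d10_m_453 (0.541) lay ahead of the other 8, which were between 0.263 and 0.401.

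SPHK1 rose with this score. The 2 foremost embryos had 116 and 91.7 CPM, d10_m_333 and d10_f_336 followed with 66.4 and 41.6 CPM, and d10_f_433, with the lowest score, had 26.1 CPM. Pearson's r was 0.96 and Spearman's rho 0.98 (permutation test with 100000 resamples, two-sided, p = 3e-05 and 7e-05, adjusted p = 0.0003 and 0.00035 over the 10 genes), and r over the other 8 embryos was 0.93 (permutation p adjusted over the 10 genes 0.006). Of the other genes, 0.275% had as high a coefficient. LPAR3 had 117 and 94.6 CPM in the same 2 embryos, 61.5 and 57.1 CPM in the next 2, and between 17.6 and 40.4 CPM in the remaining 6. Its r was 0.92 and its rho 0.98 (permutation p = 0.00014 and 4e-05, adjusted p = 0.0007 and 0.00035), with r = 0.88 over the other 8 embryos (adjusted permutation p = 0.0167), and 2% of the other genes had as high a coefficient.

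**Figure D3:**
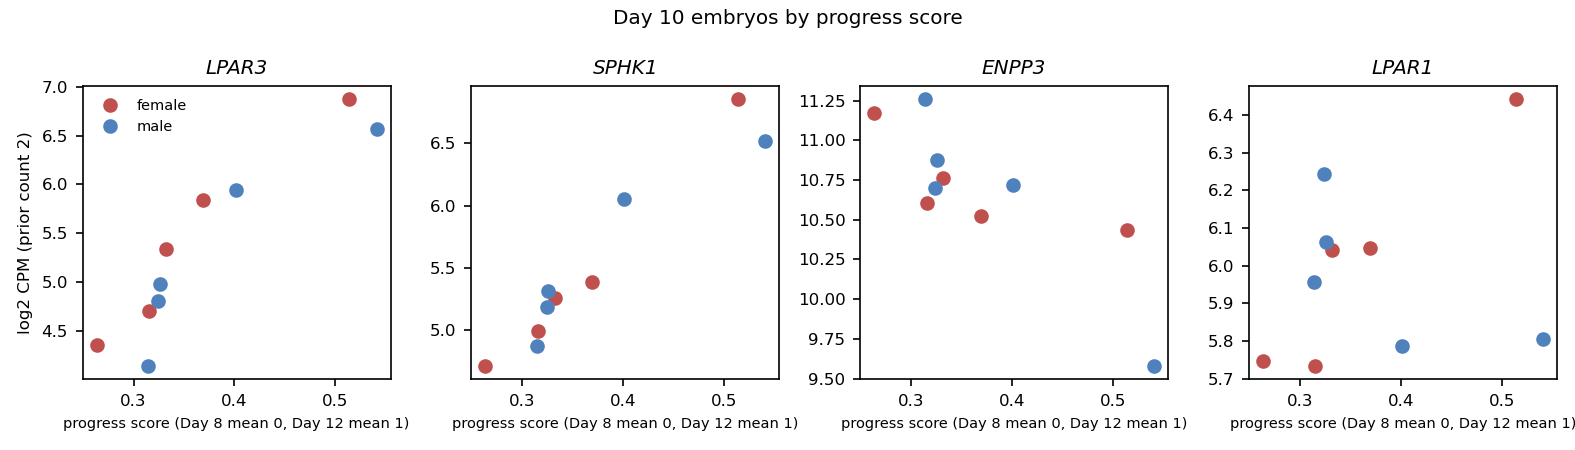
Levels of LPAR3, SPHK1, ENPP3 and LPAR1 (log2 CPM with a prior count of 2, vertical axis) against the progress score (horizontal axis) in the 10 Day 10 embryos, red for female and blue for male. LPAR3 and SPHK1 climbed along the score, ENPP3 was lowest in the embryo with the highest score, and LPAR1 showed no order.

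ENPP3, the gene that was nearly absent on Day 12, was lower in Day 10 embryos of higher score (r = -0.84, rho = -0.76, permutation p = 0.00065 and 0.0145, adjusted p = 0.00217 and 0.0482). The coefficient rested on the 2 foremost embryos, one of which, d10_m_453, had the lowest level of the day with 765 CPM. Over the other 8 it was -0.61 (adjusted permutation p = 0.219), and 8.49% of the other genes had a coefficient as low as -0.84. The remaining 7 genes had adjusted p-values from 0.108 to 0.874 for r. The 2 foremost embryos carry neighboring numbers, as do d10_f_433 and d10_m_435, which had the 2 lowest LPAR3 and the 2 highest ENPP3 levels. Whether neighboring numbers mark a gilt is not given and was not tested, and the permutation p-values treat all Day 10 embryos as independent. Score and levels come from the same libraries, and the score says nothing about the size or shape of an embryo.

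LPAR3 and SPHK1 were also related to each other within Day 10 (r = 0.95, rho = 0.98, permutation p = 1e-05, the smallest that the resampling can give, and 2e-05, adjusted p = 0.00135 and 0.0027). Without the 2 embryos farthest from the median of LPAR3, r was 0.88. Of the 135 pairs of the 10 genes tested within the 3 days, this was the only one with an adjusted p under 0.05 for r. By rho, ENPP1 and LPAR3 (rho -0.89, r = -0.83, permutation p = 0.00109 and 0.00368, adjusted p = 0.049 and 0.166) and ENPP3 and LPAR6 (rho 0.90, r = 0.77, permutation p = 0.0008 and 0.00858, adjusted p = 0.049 and 0.193) also passed on Day 12, with r = -0.92 and 0.74 without the 2 farthest embryos. The Day 12 embryo with the highest ENPP1 level, d12_m_276, had the lowest LPAR3 level of the day, and d12_m_307, with the highest LPAR3 level, had the second-lowest ENPP1 level. These pairs were computed after the levels were seen.

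Over all 30 embryos, each gene had a nearest gene by Pearson's r of log2 CPM, given here as a description. The points share the 3 days, which carry much of such a coefficient. For ENPP3 it was the bile acid transporter gene SLC10A1 (r = 0.99), with mean levels of 391, 469 and 0.665 CPM by day, and r was 0.25 once the mean of each day was taken off. LIPH was nearest to KLHL5 (0.97, and 0.56 within days), SPHK1 to the glutaredoxin gene GLRX2 (0.92 and 0.66), LPAR3 to CTDSPL (0.91 and 0.75) and LPAR6 to SULF2, which encodes an enzyme that edits heparan sulfate (0.87 and 0.79). For ENPP1 and S1PR1 the coefficient was as high within days as over all embryos. ENPP1 was nearest to the phosphatase subunit gene PPP4R1 (0.91 and 0.91), and S1PR1 to PODXL, which encodes the sialomucin podocalyxin (0.90 and 0.91). ENPP2 (LOC100522455, 0.86 and 0.79), LPAR2 (CAPN1, 0.74 and 0.63) and LPAR1 (CASTOR2, 0.68 and 0.61) completed the 10.

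The 10 genes sit in a wider network of enzymes, receptors and signal transducers, for which 72 other genes were listed and 62 were in the table. This list, too, was drawn up with earlier results of these data known. From Day 8 to Day 10, 12 of the 62 (19.4%, against 9.88% of all genes) were called higher and 1 (1.61%, against 4.20%) lower. Their median log2 fold change was 0.29, against 0.03 for all genes. With library size alone in place of TMM scaling, 11 were called higher and 3 lower, as were 1027 and 811 of all genes. From Day 10 to Day 12, 10 (16.1%, against 14.9%) were called higher and 14 (22.6%, against 8.39%) lower with TMM scaling. The median was 0.02 against 0.04. Library size alone gave 14 and 12 in this interval, and 2396 and 891 of all genes. Between Days 8 and 12 the counts with TMM scaling were 19 (30.6%, against 22.0%) and 10 (16.1%, against 10.4%), with a median of 0.06 against 0.09.

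The largest rise on Day 12 was in PLPP1, a lipid phosphatase of the cell surface that breaks down LPA and S1P. It went from 1.05 ± 0.255 CPM on Day 8 to 5.13 ± 2.27 CPM on Day 10 and 272 ± 95.6 CPM on Day 12 (log2 fold change 5.72 from Day 10, adjusted p = 6.33e-18). Of the 20 genes that remove LPA and other lysophospholipids, 5 were called higher on Day 10 than on Day 8 (PLPP1, PLPP2, AGPAT3, LPCAT1 and MBOAT2) and 1 lower, or 25% and 5% against 9.88% and 4.20% of all genes. On Day 12, 5 were called higher than on Day 10 (PLPP1, AGPAT1, MBOAT1, MBOAT2 and MBOAT7) and 6 lower, or 25% and 30% against 14.9% and 8.39%. The single fall up to Day 10 was in LPCAT2, an acyltransferase for lysophosphatidylcholine (2.25 ± 0.618 to 0.367 ± 0.193 CPM, at least 5.86-fold, adjusted p = 2.16e-06, with 2 Day 10 embryos at or under 3 counts).

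Ceramide synthases and ceramidases use or supply the sphingosine on which SPHK1 acts. Of the 10 in the table, CERS3, CERS6, CERS4 and ACER2 were called between neighboring days, and CERS1, CERS2, CERS5, ASAH1, ACER1 and ACER3 were not. The ceramide synthase gene CERS6 had 24.9 ± 7.34 CPM on Day 8, 247 ± 110 CPM on Day 10 and 3.35 ± 1.63 CPM on Day 12, and CERS3 had 5.21 ± 1.42, 37.2 ± 11.2 and 0.604 ± 0.663 CPM. Both thus peaked on Day 10, with log2 fold changes of 3.31 and 2.83 up to that day (adjusted p = 2.47e-11 and 6.67e-09) and of -6.24 and -5.90 afterwards (adjusted p = 1.06e-16 and 1.64e-14). The ceramidase gene ACER2 had 3 counts or fewer in 7 of 10 Day 8 embryos and ran from 0.227 to 12.2 CPM on Day 10, with a median of 1.56 CPM, so that its Day 10 level was uneven and overlapped with Day 8. With levels under the floor set to 3 counts, its mean was at least 22.2-fold higher on Day 10 (adjusted p = 1.87e-07). CERS4 was higher on Day 12 (2.87 ± 1.18 to 21.1 ± 9.85 CPM, log2 fold change 2.87, adjusted p = 3.43e-10). Of the 20 genes for S1P synthesis, breakdown and export, 4 rose up to Day 10 (ACER2, CERS3, CERS6 and APOM), or 20% against 9.88% of all genes. Afterwards 4 rose (CERS4, SPNS2, SGPP1 and SMPD1), or 20% against 14.9%, and 3 fell (CERS3, CERS6 and SMPD3), or 15% against 8.39%. SPNS2, the S1P exporter, increased from 23.9 ± 2.27 to 73.7 ± 32.2 CPM on Day 12 (log2 fold change 1.62, adjusted p = 1.30e-08).

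**Figure D4:**
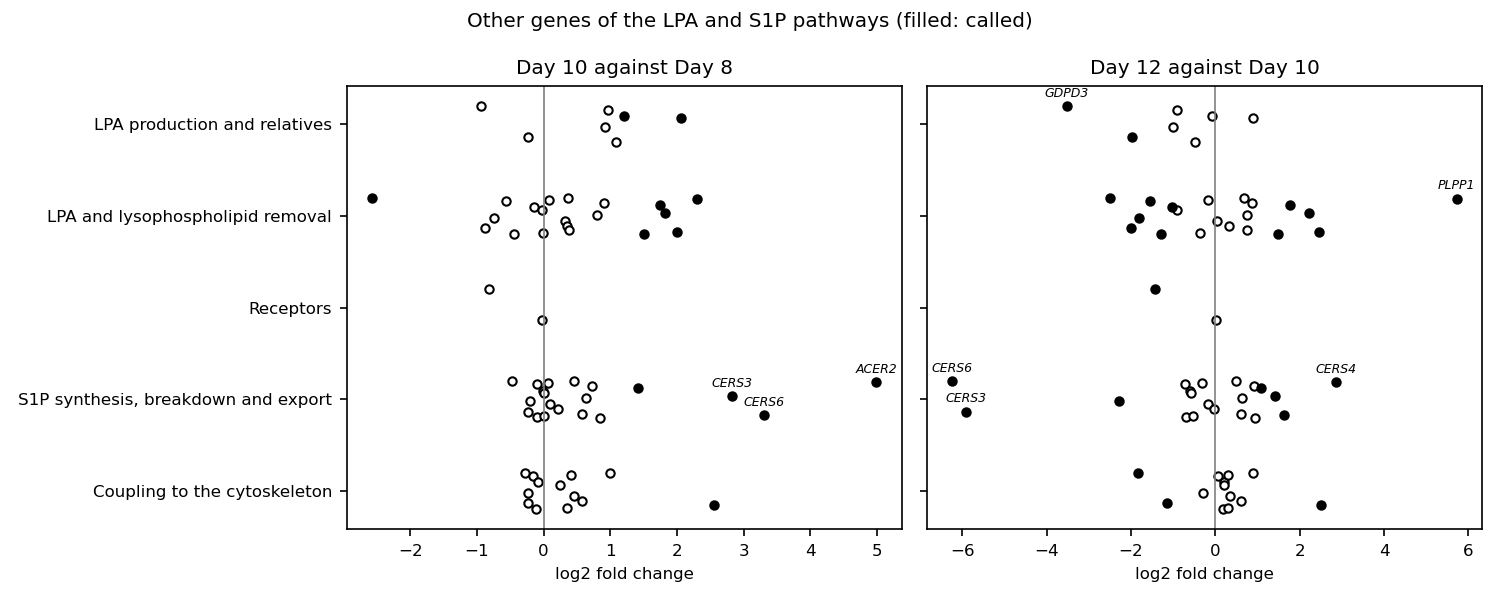
Log2 fold changes (horizontal axis) of the 62 other genes of the LPA and S1P pathways in the table, grouped by role (vertical axis, with points shifted up and down for legibility), for Day 10 against Day 8 and Day 12 against Day 10. Filled points are DEG and names mark changes beyond 2.8; CERS3 and CERS6 lie far right for Day 10 and far left for Day 12, and PLPP1 rose most on Day 12.

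Of 7 genes that make LPA or are related to ENPP2, the LPA-forming kinase gene AGK (log2 fold change 1.21, adjusted p = 9.44e-10) and GDPD1 (2.06, adjusted p = 4.01e-06) were called higher on Day 10 than on Day 8, or 28.6% against 9.88% of all genes. On Day 12, GDPD3, a phosphodiesterase that can release LPA from lysophospholipids, fell from 12.1 ± 2.71 to 1.13 ± 0.997 CPM (log2 fold change -3.52, adjusted p = 1.57e-10), and GDE1 fell by 1.98 on the log2 scale (adjusted p = 3.70e-14). These 2 falls were 28.6% of the 7 genes, against 8.39% of all genes. Of 7 other receptors listed, 2 were in the table. S1PR2 had 8.96 ± 0.876, 8.79 ± 1.39 and 8.82 ± 3.38 CPM on the 3 days and was not called, and S1PR5 fell from 7.98 ± 5.50 to 3.02 ± 1.26 CPM on Day 12 (log2 fold change -1.43, adjusted p = 9.69e-05). Of 13 genes that couple such receptors to the cytoskeleton, GNAI1, which encodes an inhibitory G protein subunit, rose in both intervals, from 6.36 ± 0.792 to 37.6 ± 11.15 and to 214 ± 65.5 CPM (log2 fold changes 2.56 and 2.51, adjusted p = 1.19e-12 and 2.93e-13). It was the only one of the 13 called higher in either interval, or 7.69%, below the 9.88% and 14.9% of all genes. From Day 10 to Day 12, GNA11 and GNAQ, which encode subunits of the Gq class, were called lower (log2 fold changes -1.82 and -1.14, adjusted p = 2.86e-12 and 5.43e-05), or 15.4% against 8.39% of all genes.

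Between female and male embryos, compared in the table of each day at an FDR under 0.05, the quasi-likelihood test of edgeR called none: 0 of 9 genes tested on Day 8 and 0 of 8 on each later day. Of all genes in these tables, 0.658%, 0.223% and 0.123% were called. ENPP2 was in none of the 3 tables and LIPH in that of Day 8 alone. At an unadjusted p under 0.05 there was 1 gene on Day 8, 1 on Day 12 and 0 between them. DESeq2 and the robust GLM each called 1 on Day 8 and 0 on the later days. The shares of all genes above are those of the quasi-likelihood test, and those of DESeq2 and the robust GLM were not counted.

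The gene on Day 8 was SPHK1. The 5 female embryos ran from 4.75 to 9.54 CPM and the 5 male embryos from 8.84 to 18.9 CPM, so that the groups overlapped at their edges. The means were 6.93 ± 1.73 and 12.7 ± 4.11 CPM (adjusted p = 0.25, log2 fold change of female over male -0.85 with an SE of 0.23), and the difference passed with DESeq2 (adjusted p = 0.0309) and with the robust GLM (adjusted p = 0.0192). On Day 10 the means were 50.7 ± 36.8 and 52.6 ± 26.0 CPM, and on Day 12 they were 22.2 ± 3.78 and 20.8 ± 3.84 CPM. LPAR2 on Day 12 was higher in females, with 29.5 ± 4.42 against 22.6 ± 2.49 CPM (adjusted p = 0.198, log2 fold change 0.41 with an SE of 0.14). When the change of the difference between females and males was tested over the 3 intervals, 0 of the 10 genes passed, as did 0% of all genes, and 0 of the 10 had an unadjusted p under 0.05. DESeq2 also called 0 of the 10.

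**Figure D5:**
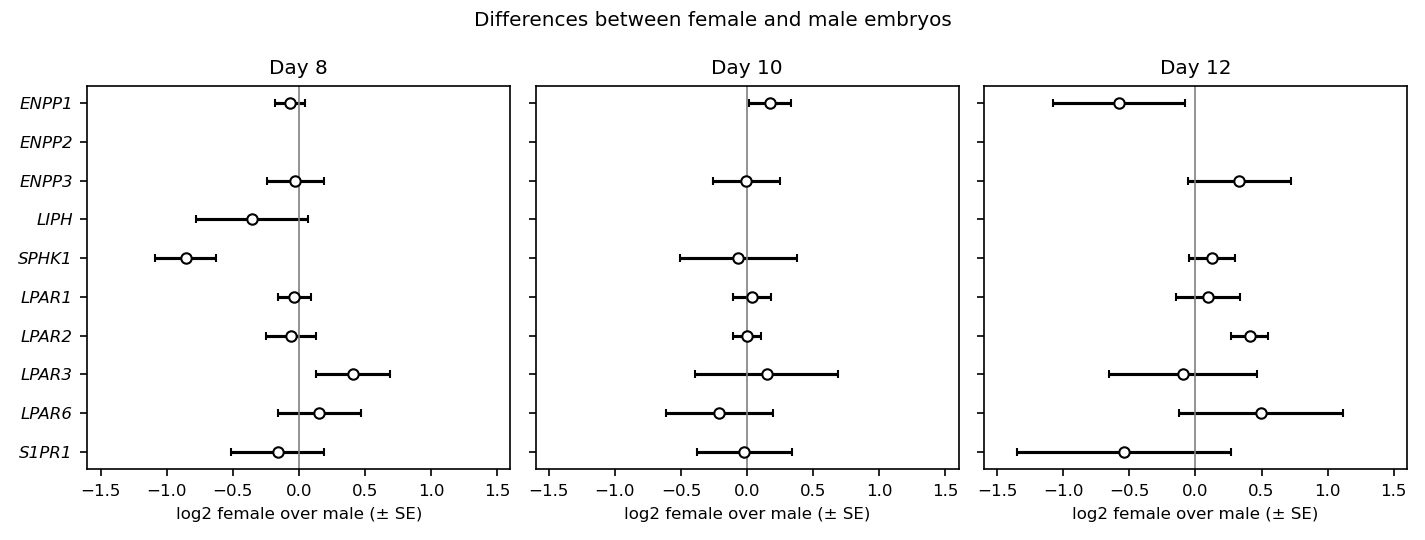
Log2 fold change of female over male embryos (horizontal axis, with its SE as bars) for each gene in the table of Day 8, Day 10 or Day 12, with 5 embryos of each sex per day. SPHK1 on Day 8 and LPAR2 on Day 12 lie farthest from 0 relative to their SE, and genes without a point were not in the table of that day.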

How the data were processed

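Libraries of single-embryo mRNA came from a stranded kit. Per the study's methods, the authors quality-trimmed reads (also clipping 3 bases at the 5′ end), mapped them to Sus scrofa genome version 11.1 with the NCBI annotation and dropped genes under a CPM cutoff. The aligner, counting tool, strand setting and cutoff are not given in the sources used here. The authors deposited read counts without normalization, by NCBI gene identifier, in 1 table of all 30 embryos (13103 genes) and 1 per day. Counts shared by the tables were identical. Symbols and positions came from the RefSeq gene table of Sscrofa11.1, which matched all identifiers.

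Days were compared in 1 fit with 3 day groups, and sexes in the table of their day (female over male, FDR under 0.05), with R 4.3.3 and edgeR 4.0.16 (TMM, robust quasi-likelihood F test). DESeq2 1.42.0 and the robust GLM were alternatives. The SE is the log2 fold change over the square root of F. The change of a sex difference came from a fit of 6 groups. Permutations used Python 3.11.15 and numpy 2.4.6. The quasi-likelihood test of Day 10 against Day 8 was tried on simulated counts, and the other tests were not. No 2 embryos of a group were alike within sampling noise (60 pairs, lowest chi-square over its degrees of freedom 7.66).

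The 10 genes and all lists were chosen with earlier results of these data known. Named are all 10 genes, the nearest gene of each by Pearson's r over 30 embryos among genes with a mean of at least 1 CPM, and, of the 72 pathway genes, the 3 largest rises and falls called per neighboring days and those needed to read a count of 5 or fewer. Sequences were not analysed here.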

Additional observations from a re-analysis of the deposited data

Results flagged for a closer look

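In 4 of the 30 groups of 10 embryos (10 genes on 3 days), the highest embryo lay apart from the other 9 by Dixon's test on CPM. The test flags about 1 in 20 groups by chance when levels are normally distributed. This was not checked and no log scale was used, so the number expected by chance here is not known. LIPH on Day 8 was highest in d08_m_136, with 32.1 CPM against at most 18.4 CPM in the other embryos, and without it the fall to Day 10 was -7.01 on the log2 scale (edgeR, adjusted p = 3.08e-12). On Day 12, LIPH was highest in d12_f_289, with 0.538 CPM against at most 0.240 CPM, a level near the floor. LPAR3 on Day 12 was highest in d12_m_307, with 31.0 CPM against at most 13.8 CPM, and without it the fall from Day 10 was -2.57 (edgeR, adjusted p = 1.45e-07). S1PR1 on Day 12 was highest in d12_m_275, with 13.4 CPM against at most 5.23 CPM, and its values without this embryo are given with the gene.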

How the results depend on the processing

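The DEG among the 10 genes were the same with RLE factors, with library size alone, with genes under 10 counts in 5 embryos or under a mean of 1 CPM removed (the latter drops ENPP2), and with sex as a term. Library size alone shifted the median log2 fold change of all genes by -0.18 between Days 8 and 10 and by 0.20 between Days 10 and 12, and changed the share of DEG that were higher from 70.2% to 55.9% and from 64.0% to 72.9%. Fits with embryos of 1 sex held fewer embryos. Between Days 10 and 12, the number of DEG among the 10 genes fell from 5 to 2 in females and 2 in males. Between Days 8 and 12 it fell from 5 to 3 and 2. The share of all genes called in these fits was not counted, so the drop is not read as a result about the 10 genes. An FDR of 0.05 without a fold limit gave 7 of the 10 genes and 35 of the 62 pathway genes between Days 8 and 10 and 48 pathway genes between Days 10 and 12. At this limit at least 7197 of all 13103 genes also passed between Days 8 and 10, and at least 7575 between Days 10 and 12. The exact share of all genes at this limit was not counted. Nothing is therefore concluded from these counts about the 10 genes or the pathway genes. Tested against a log2 fold change of 1, 1 of the 10 genes (ENPP3) was left between Days 10 and 12. Between Days 8 and 12, 2 were left (ENPP3 and LIPH), and 8 and 14 pathway genes were left in the neighboring intervals. The share of all genes left by this test was not counted, so these counts have no background beside them. Between the sexes on Day 8, DESeq2 called 1 gene and the robust GLM 1, in place of 0, without a count of all genes they called.

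With each embryo left out in turn, 3 to 4, 5 and 4 to 6 of the 10 genes and 13 to 15, 23 to 26 and 27 to 30 pathway genes were called in the 3 comparisons, and 0 between the sexes. Differences near 0 changed direction: between Days 8 and 12, LPAR3 ran from -0.38 to 0.10 and LPAR1 from -0.027 to 0.12 over these fits, LPAR3 was 0.015 with library size alone and 0.25 in males, and ENPP2 was -0.22 in males. LPAR2 between Days 10 and 12 was 0.063 with library size alone. None of these was called. The relation to the progress score held for LPAR3, SPHK1 and ENPP3 with prior counts of 0.5 and 5, with library size alone and with the first principal component of the Day 10 embryos in place of the score. Among the other genes, r turned to -0.053 for LPAR1 and -0.11 for LPAR2 with library size alone, to 0.036 for LIPH with the first component, and to -0.33 for ENPP2 and -0.33 for LPAR6 without the 2 foremost embryos. The cause was not tested. The fit without these 2 embryos was chosen after seeing the data. No paired analysis was possible because embryo numbers are not shared between groups, and the gilts that neighboring numbers may mark are not given. Depth limits ENPP2 and LIPH most, with many embryos at or under 3 counts.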
